A study of Mus musculus with 10 samples.

Results

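H3K27me3 coverage of 10 T-box transcription factor genes was described in 5 mouse B-cell lymphoma lines. The genes were Tbx1, Tbx2, Tbx3, Tbx4, Tbx5, Tbx15, Tbx18, Tbx20, Tbx21 and Eomes, taken by symbol, and all 10 were found among the 37310 annotated genes of the mm9 mouse genome. The parental line was an Eμ-Myc lymphoma lacking Cdkn2a (genotype Cdkn2a-/-, strain C57BL/6J), so that the Myc transgene, driven by an immunoglobulin enhancer in B cells, and the loss of Cdkn2a were shared by all 5 lines. The resistant lines R100, R500, R1000 and R4000 came from it in culture under rising doses of mafosfamide, an alkylating agent related to cyclophosphamide, and carry the dose of 100, 500, 1000 or 4000 nM in their names. Per the study, cells for H3K27me3 ChIP-seq were grown without mafosfamide. Lines of higher dose were harvested later, so time in culture rose with the dose. Each resistant line was a sub-clone of 1 parental culture and was represented by 1 peak list. The study refers to replicate profiles, which the lists do not hold apart, so no spread between replicates was available and no test between lines was made. What past exposure to a dose did cannot be told apart from time in culture, or from what set 1 sub-clone apart from another. For each gene, the bases covered by distinct peaks were counted from 5 kb upstream of the transcription start site (TSS) to the end of the gene, an interval called its window here.

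T-box genes encode transcription factors that bind DNA through the T-box domain and direct the formation of mesoderm, heart, limbs and lymphoid cells. H3K27me3, trimethylation of lysine 27 on histone H3, is laid down by Polycomb repressive complex 2 and marks developmental regulator genes that a cell holds silent, often across CpG-rich DNA at their starts. Most T-box genes have no known role in B cells, whereas Tbx21 (T-bet) and Eomes are regulators of T and natural killer cells, and T-bet is also known from subsets of mature B cells.

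Sequence of covered stretches is printed below to show which DNA lay in peaks of several lines, with 1 uncovered start for contrast. All are the + strand of mm9, in lower case with CpG dinucleotides in capitals. The stretch of Tbx2 lay in peaks of all 5 lines, at chr11:85653751-85653900, in an intron, as did the stretch of Tbx1 at chr16:18591351-18591400, upstream of the gene, and that of Tbx15 at chr3:99057901-99057950, in a coding exon. The stretches of Eomes, at chr9:118386601-118386800 upstream of the gene, and of Tbx4, at chr11:85708401-85708550 in an intron, lay in peaks of the parental, R100, R500 and R4000 lines. The stretch of Tbx21, at chr11:96976026-96976225 in a coding exon, lay in peaks of R100 and R500, and that of Tbx5, at chr5:120281101-120281200 upstream of the gene, in peaks of R100 and R1000. The stretch of Tbx18, at chr9:87626096-87626245, is the 150 bases before its TSS and lay in no peak of any line.
Tbx2: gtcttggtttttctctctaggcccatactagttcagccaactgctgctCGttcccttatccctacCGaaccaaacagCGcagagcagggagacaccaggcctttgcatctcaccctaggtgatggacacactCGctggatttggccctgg
Tbx1: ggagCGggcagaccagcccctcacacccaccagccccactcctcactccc
Tbx15: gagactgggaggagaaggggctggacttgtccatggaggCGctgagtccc
Eomes: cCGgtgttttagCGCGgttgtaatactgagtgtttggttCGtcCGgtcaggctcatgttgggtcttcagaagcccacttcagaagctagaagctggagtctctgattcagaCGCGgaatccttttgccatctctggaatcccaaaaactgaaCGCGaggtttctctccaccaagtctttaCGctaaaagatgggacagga
Tbx4: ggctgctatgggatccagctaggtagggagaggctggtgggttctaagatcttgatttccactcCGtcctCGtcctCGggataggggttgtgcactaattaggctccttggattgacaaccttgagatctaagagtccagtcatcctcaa
Tbx21: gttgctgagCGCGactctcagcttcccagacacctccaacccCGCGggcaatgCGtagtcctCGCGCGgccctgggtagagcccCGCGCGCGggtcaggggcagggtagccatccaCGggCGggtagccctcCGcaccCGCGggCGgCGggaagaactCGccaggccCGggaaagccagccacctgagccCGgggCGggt
Tbx5: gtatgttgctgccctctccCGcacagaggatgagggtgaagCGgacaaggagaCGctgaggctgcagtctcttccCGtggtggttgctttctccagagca
Tbx18: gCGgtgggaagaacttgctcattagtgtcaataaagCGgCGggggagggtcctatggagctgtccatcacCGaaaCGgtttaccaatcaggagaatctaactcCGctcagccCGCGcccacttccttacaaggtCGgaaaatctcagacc
Each covered stretch came from the longest run held by the highest number of lines in its gene, outside untranslated and non-coding exon bases. Longer runs were cut to their middle 200 bases. The 3 stretches found in all 5 lines held 4 CpG in 150 bases (Tbx2), 1 in 50 (Tbx1) and 1 in 50 (Tbx15). Those of Eomes, Tbx4 and Tbx5 held 10 in 200, 3 in 150 and 4 in 100 bases. The stretch of Tbx21 held 23 in 200 bases, and the uncovered start of Tbx18 held 9 in 150 bases.

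The lists differed in size before any gene was considered. They held 10778 distinct peaks in parental cells and 25180, 21888, 9595 and 6820 in the R100, R500, R1000 and R4000 lines, which covered 1.63, 5.04, 4.53, 1.61 and 1.07 Mb. The lists give positions only, with no height or read count, so depth is unknown, and more mark, deeper sequencing and a looser threshold cannot be told apart. Ratios between lines are therefore given beside the ratio over the whole list. The B-cell label was compared with 7 B-cell genes. None was covered over at least 150 bp in the parental line, whereas the R100 list covered 2 (Cd79b and Ebf1), the R500 list 3 (with Cd22), the R1000 list 1 (Cd79b) and the R4000 list 0, and Cd79a, Ms4a1 and Blnk held no peak in any line. Of 8 T-cell and natural killer cell genes, 1 was covered in the parental line (Cd4), 2 in R100, 3 in R500 and none in R1000 or R4000. Over all annotated genes, 5.82%, 15.8%, 12.7%, 6.63% and 5.39% were covered in the parental, R100, R500, R1000 and R4000 lines. With lists this short, the counts cannot tell whether the label holds.

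The T-box genes as a group held more peak bases in R100 and R500 than in the other lines. A gene was counted as covered with at least 150 bp in its window, that is 3 bins of the 50-bp grid on which the peaks lie. In the parental line 5 of the 10 genes were covered (Tbx1, Tbx2, Tbx4, Tbx15 and Eomes), against 5.82% of all annotated genes. In R100 and in R500 8 of 10 were covered, against 15.8% and 12.7% of all genes, with Tbx3, Tbx5 and Tbx21 beside the parental 5. In R1000 6 of 10 were covered, against 6.63%, and in R4000 5 of 10, against 5.39%. The 10 genes are protein-coding. Of all protein-coding genes, 7.67%, 21.7%, 17.0%, 8.86% and 7.05% were covered in the parental, R100, R500, R1000 and R4000 lines. The 5 genes covered in the parental line were covered in every line, as were 3.37% of all annotated genes and 4.35% of protein-coding genes. Tbx18 alone held no peak in any line, as did 68.4% of all annotated genes and 57.2% of protein-coding genes.

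**Figure D1:**
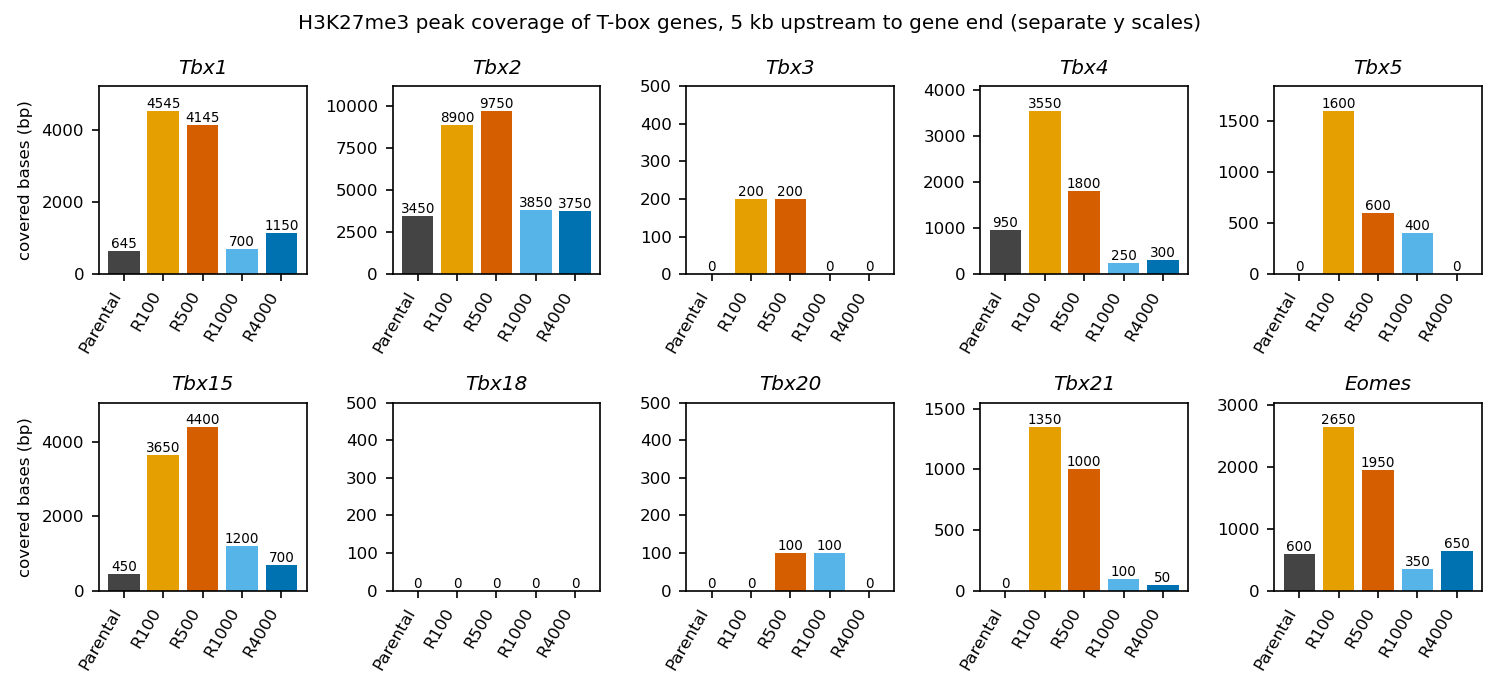
Bases covered by H3K27me3 peaks (y axis, bp, a separate scale for each gene) in each of the 5 lines (x axis), from 5 kb upstream of the TSS to the gene end, with 1 list per line and no error bars. R100 and R500 hold the 2 tallest bars in Tbx1, Tbx2, Tbx3, Tbx4, Tbx5, Tbx15, Tbx21 and Eomes, Tbx20 reaches 100 bp and Tbx18 stays at 0.

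Changes against the parental line were counted at 2-fold, with at least 150 bp in the line that held more. By this rule 8 of 10 T-box genes gained coverage in R100, all but Tbx18 and Tbx20 (13.9% of all genes gained), 7 in R500, where Tbx4 missed the 2-fold (10.6%), 2 in R1000, namely Tbx5 and Tbx15 (2.90%), and 0 in R4000 (2.06%). Loss of coverage was counted for 0 of 10 in R100 (0.461% of all genes), 0 in R500 (0.466%), 1 in R1000 (1.78%) and 1 in R4000 (3.0%), which was Tbx4 each time. Of protein-coding genes, 19.1%, 14.3%, 3.83% and 2.63% gained coverage in R100, R500, R1000 and R4000. Losses were counted for 0.527%, 0.581%, 2.34% and 4.11% of them in the same order. All 4 comparisons share the 1 parental list. The median coverage of the 10 genes was 225 bp in parental cells and 2125, 1400, 300 and 175 bp in the R100, R500, R1000 and R4000 lines, where the median over all annotated genes was 0 bp in every line. Among the 2170 annotated genes covered in the parental line, the median was 407, 1250, 1249.5, 450 and 250 bp in the 5 lines, and among the 5 T-box genes covered there it was 645, 3650, 4145, 700 and 700 bp.

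Summed over the 10 genes, peaks covered 6095 bp in parental cells, 26445 bp in R100 cells, 23945 bp in R500 cells, 6950 bp in R1000 cells and 6600 bp in R4000 cells. Relative to the parental line, the sum was 4.34 times as large in R100 and 3.93 times in R500. The whole list was 3.09 and 2.78 times as large there, and the windows of all annotated genes 3.31 and 2.95 times. In R1000 the T-box sum was 1.14 times the parental sum, close to the 1.12 times of all gene windows, where the whole list was 0.988 times the parental one. In R4000 the T-box sum was 1.08 times the parental sum, while the whole list had shrunk to 0.658 times and the windows of all annotated genes to 0.783 times. The share of all covered bases that lay in T-box windows was thus 0.373% in the parental line and 0.615% in R4000, with 0.525%, 0.528% and 0.431% in R100, R500 and R1000. Tbx2 held more than any other T-box gene in each line. Without it, the ratios were 6.63 and 5.37 for R100 and R500, and 1.17 and 1.08 for R1000 and R4000.

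**Figure D2:**
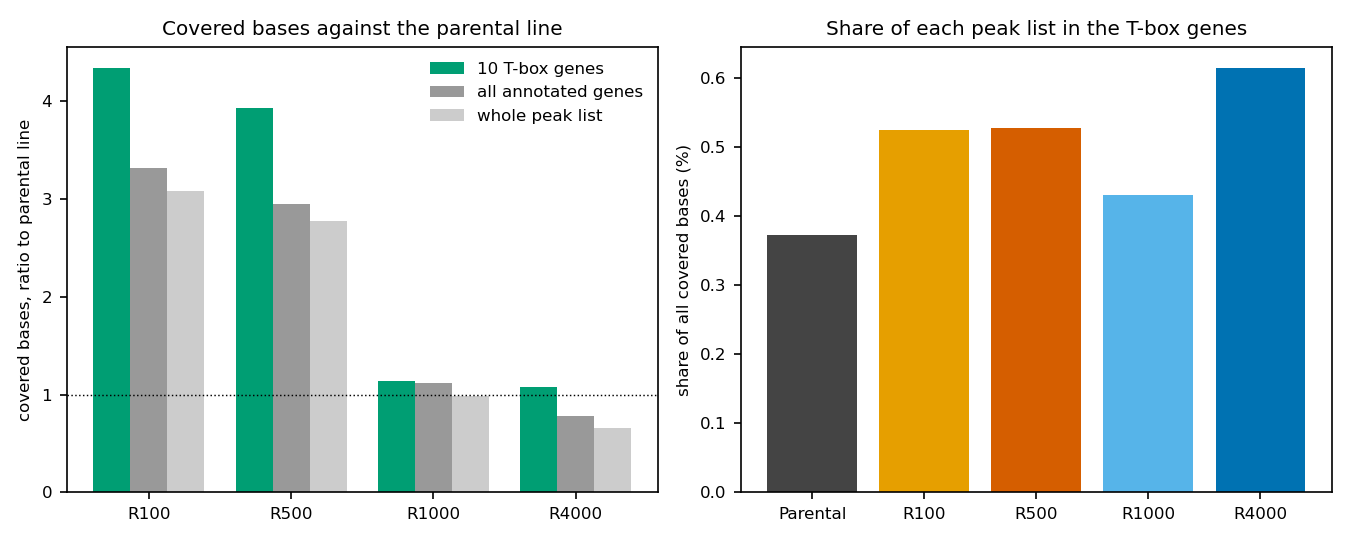
On the left, covered bases of each resistant line divided by those of the parental line (y axis, dotted line at 1) for the 10 T-box genes, all annotated genes and the whole list; on the right, the share of each line's covered bases (y axis, %) that lies in T-box windows. The T-box bar is the tallest of its 3 in each resistant line, and with the full lists the share is highest in R4000, at 0.615%.

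Tbx2, a transcriptional repressor active in heart and limb development, was the most widely covered T-box gene. It lies at chr11:85646053-85655450 on the + strand, and its 14.4-kb window held 3450 bp of peaks in parental cells and 8900, 9750, 3850 and 3750 bp in the R100, R500, R1000 and R4000 lines. R500 was highest and the parental line lowest, with R1000 and R4000 close to the parental value. As a share of the window this was 24.0%, 61.8%, 67.7%, 26.7% and 26.0%. Among all annotated genes, ordered by covered bases, Tbx2 stood at place 42 (parental), 18 (R100), 14 (R500), 35 (R1000) and 24 (R4000), a place that also depends on window length. R100 and R500 therefore covered 2.58 and 2.83 times the parental bases, and R1000 and R4000 1.12 and 1.09 times.

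The peaks of Tbx2 changed in width more than in number. The window held 15 peaks in parental cells and 15, 13, 15 and 15 in the R100, R500, R1000 and R4000 lines, whereas the widest stretch measured 700, 2200, 2550, 650 and 600 bp. In R500 the widest stretch ran from 3.40 to 5.95 kb downstream of the TSS and took in 4 separate parental peaks. Of the 11100 bp covered in at least 1 line, 700 bp were covered in all 5, and R100 and R500 shared 7800 bp. The TSS itself was bare: the nearest covered base lay 1153 bp away in parental cells and 103, 98, 503 and 153 bp in the R100, R500, R1000 and R4000 lines. Most covered bases upstream of Tbx2 lay in 2610027K06Rik, a divergent lincRNA gene that starts 328 bp away on the other strand, with 1975 bp in R100 and 2425 bp in R500, against 600 bp in the parental line, 700 bp in R1000 and 200 bp in R4000. All covered bases upstream of Tbx2 came to 2200 and 2550 bp in R100 and R500, and to 600, 700 and 300 bp in the parental, R1000 and R4000 lines. Peak lists carry no strand, so these bases cannot be assigned to 1 of the 2 genes.

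**Figure D3:**
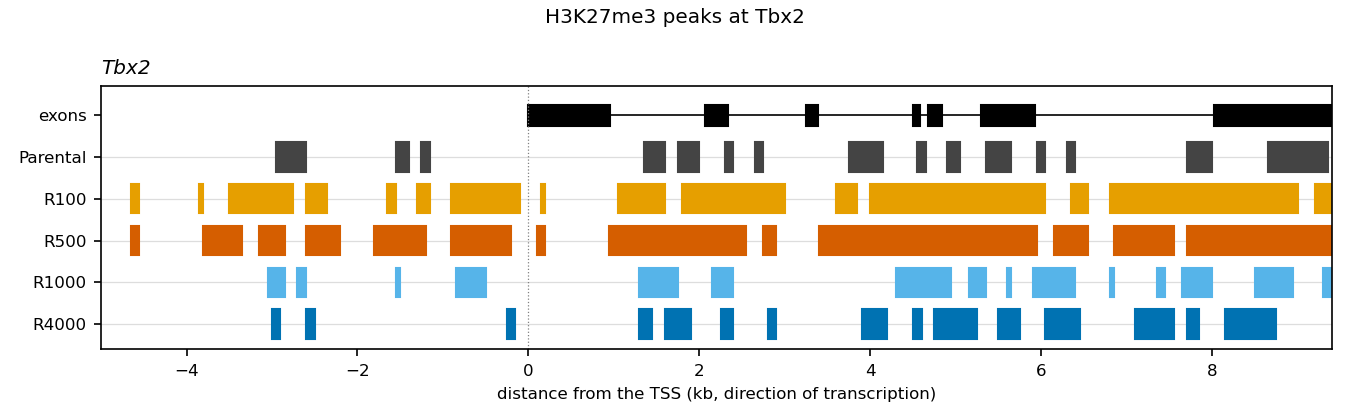
Peaks at Tbx2 in the 5 lines (coloured blocks) below its annotated exons (black blocks), by distance from the TSS (x axis, kb, in the direction of transcription). R100 and R500 show broad blocks over most of the gene, up to 2550 bp, the other 3 lines hold shorter ones, and no line has a block over the TSS.

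Tbx4, needed for hindlimb and lung development, is the neighbour of Tbx2 and, over the whole window, the T-box gene that passed 2-fold in both directions. It lies at chr11:85699924-85729599 on the + strand, and its window held 950 bp in parental cells, 3550 bp in R100 cells, 1800 bp in R500 cells, 250 bp in R1000 cells and 300 bp in R4000 cells. R100 and R500 stood above the parental line and R1000 and R4000 below it. The ratios to the parental line were 3.74 and 1.89 for R100 and R500, and 0.263 and 0.316 for R1000 and R4000. Only R100 had coverage upstream of the TSS, with 100 bp, so the loss lay in the gene itself. In the 5 kb upstream alone it was Tbx2, Tbx15 and Eomes, among the 10, that passed 2-fold in both directions. Upstream, Tbx15 held 350 bp in parental cells, 950 bp in R100 and 0 bp in R1000 and R4000, Eomes 600 bp in parental cells, 1450 bp in R100 and 150 bp in R1000, and Tbx2 600 bp in parental cells, 2200 bp in R100 and 300 bp in R4000. The parental and R4000 lines shared 150 bp, printed above as the stretch of Tbx4, while the parental and R1000 lines shared 0 bp. The 39.5 kb between Tbx2 and the window of Tbx4 held 700 bp (parental), 3900 bp (R100), 3300 bp (R500), 1400 bp (R1000) and 450 bp (R4000).

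Tbx3 and Tbx5, the counterparts of Tbx2 and Tbx4 on chromosome 5, held far fewer peaks. Tbx3, a repressor in limb, mammary gland and cardiac conduction tissue, lies at chr5:120120678-120134733 on the + strand and held 200 bp in R100, another 200 bp in R500, and no peak in the parental, R1000 and R4000 lines. Its R100 and R500 peaks shared 0 bp, so the equal totals do not mark the same bases. Tbx5, a factor of heart and forelimb development, lies at chr5:120284672-120335227 on the + strand and held 1600 bp in R100 and 600 bp in R500, against 0 bp in the parental line, 400 bp in R1000 and 0 bp in R4000. R100 was highest, R500 and R1000 lay between, and the parental and R4000 lines were empty. R100 and R500 shared 50 bp of Tbx5. The 1 peak of R1000 lay upstream, from -3621 to -3222 relative to the TSS, and took in the stretch of R100 printed above. The 145 kb between the gene pair held 0, 350, 250, 0 and 0 bp in the parental, R100, R500, R1000 and R4000 lines. The nearest parental peak lay 769 kb from the TSS of Tbx3 and 605 kb from that of Tbx5.

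Tbx1, a regulator of pharyngeal arch and outflow tract development, lies at chr16:18581806-18588113 on the - strand. Its 11.3-kb window held 645 bp in parental cells, 4545 bp in R100 cells, 4145 bp in R500 cells, 700 bp in R1000 cells and 1150 bp in R4000 cells. R100 and R500 covered 40.2% and 36.7% of the window, and the other 3 lines 5.70% to 10.2%. The ratios to the parental line were 7.05, 6.43, 1.09 and 1.78. Much of the coverage lay upstream of the gene: 400 bp (parental), 2637 bp (R100), 2500 bp (R500), 600 bp (R1000) and 950 bp (R4000). The 50 bp covered in all 5 lines, printed above, lie in this upstream part, from -3287 to -3238. Tbx1 in R100 was the only case, among 10 genes and 5 lines, in which the TSS itself lay in a peak.

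Tbx15, a factor of skeletal and skin development, lies at chr3:99044304-99158182 on the + strand and has the longest window, 118.9 kb. It held 3650 bp in R100 and 4400 bp in R500, against 450 bp in the parental line, 1200 bp in R1000 and 700 bp in R4000. All 4 resistant lines lay above the parental line, at 8.11, 9.78, 2.67 and 1.56 times its coverage. The peaks kept to the first part of the gene, since the most distant one began 20.9 kb after the TSS, in R500. In the parental line 350 of the 450 bp lay upstream, of which 300 bp were in the neighbouring gene Wars2, a tryptophanyl-tRNA synthetase of mitochondria. R1000 and R4000 held 0 bp upstream and covered the first intron and the second exon instead. That exon holds the 50 bp shared by all 5 lines.

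Eomes, a T-box factor of early mesendoderm and of effector T cells and natural killer cells, lies at chr9:118387330-118395250 on the + strand. Its window held 600 bp in parental cells, 2650 bp in R100 cells, 1950 bp in R500 cells, 350 bp in R1000 cells and 650 bp in R4000 cells. R100 and R500 stood at 4.42 and 3.25 times the parental value, R4000 was close to it at 1.08 times and R1000 lay below it at 0.583 times. All parental peaks of Eomes lay upstream, in the 1 kb before the TSS. The R4000 line shared 450 bp with the parental line there, more than the 100 bp that R1000 shared with it. R4000 repeated 1 parental peak base for base, from -329 to -80 relative to the TSS. Peaks in the gene itself were found in R100, R500, R1000 and R4000 and in each of these lines lay partly around the end of the first exon.

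**Figure D4:**
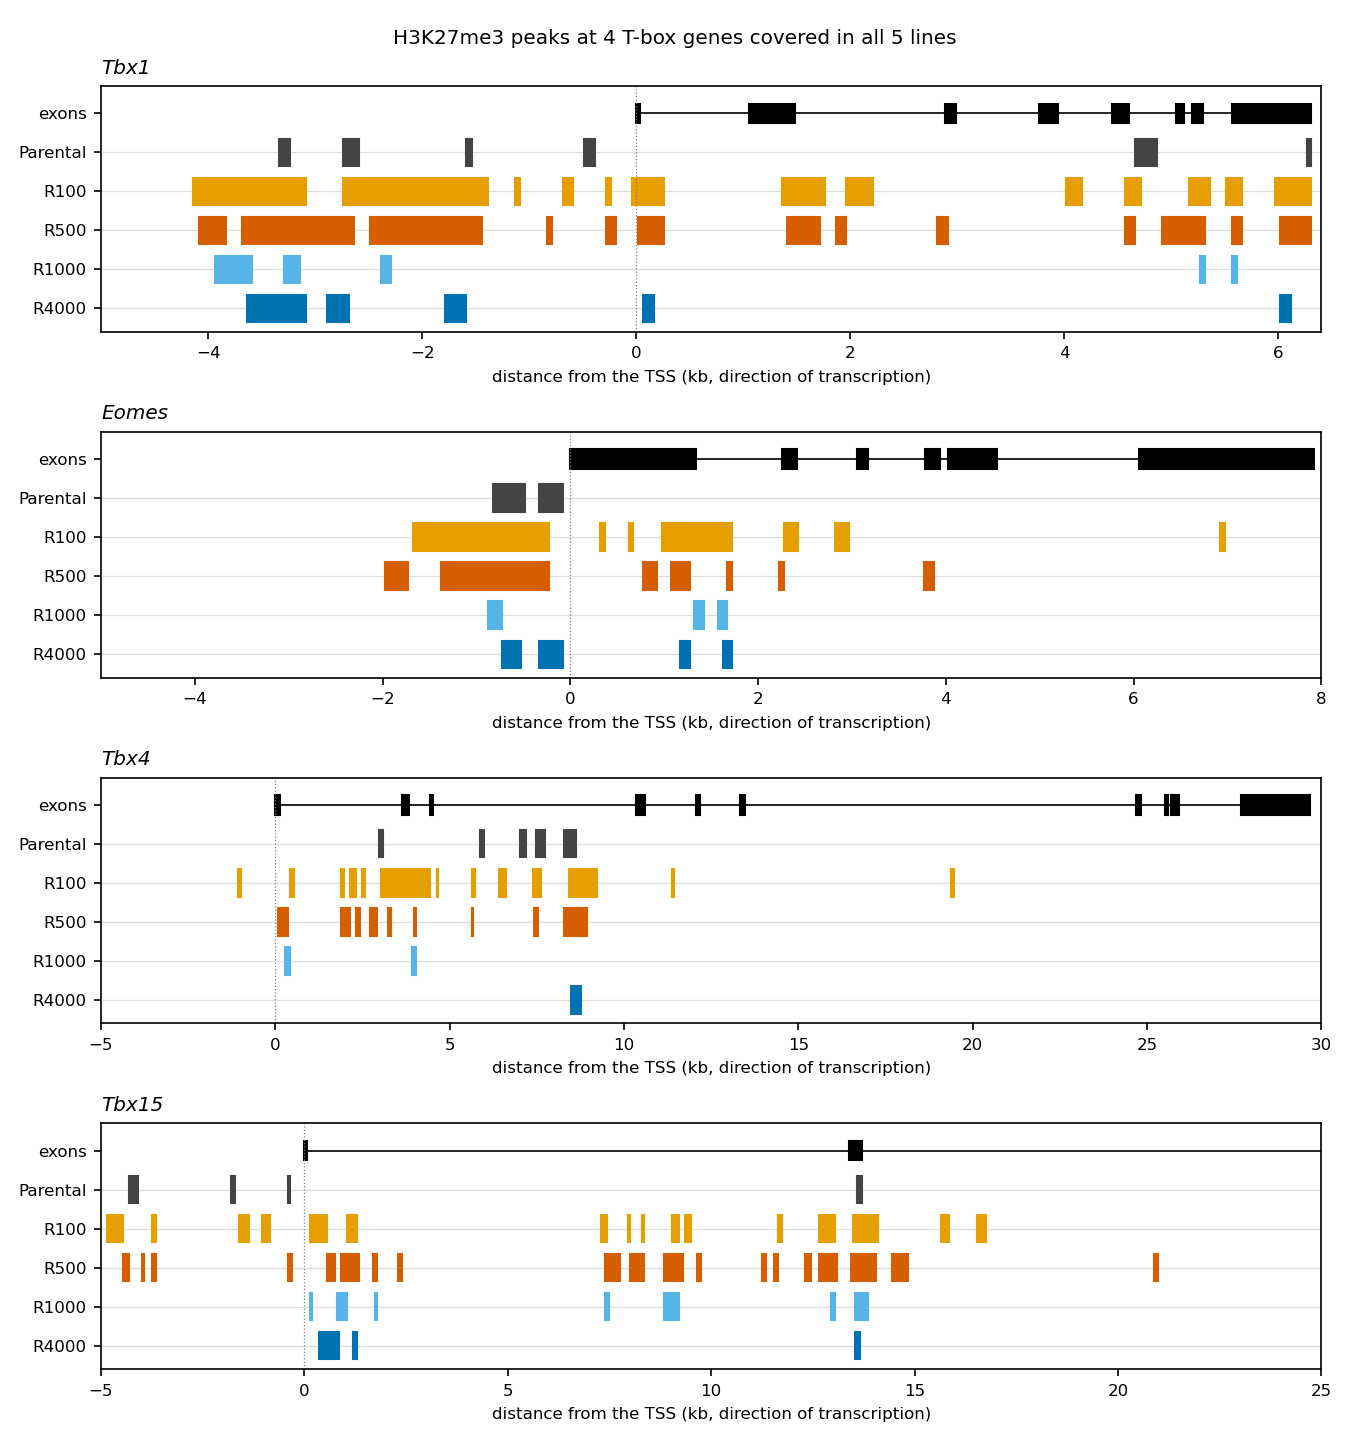
Peaks at Tbx1, Eomes, Tbx4 and Tbx15 in the 5 lines (coloured blocks) below the annotated exons (black blocks), by distance from the TSS (x axis, kb, a separate scale for each gene; Tbx15 is shown to 25 kb, past its last peak). R100 and R500 hold more and wider blocks than the other lines. Blocks of Tbx1 lie on both sides of the TSS in each line, and those of Eomes lie only upstream in the parental line and on both sides in the resistant lines. Tbx4 has 2 blocks in R1000 and 1 in R4000.

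Tbx21, which directs T helper type 1 differentiation and interferon gamma production, lies at chr11:96959385-96976645 on the - strand. It held 0 bp (parental), 1350 bp (R100), 1000 bp (R500), 100 bp (R1000) and 50 bp (R4000). The R100 and R500 values stood far above the remaining 3, of which none reached 150 bp. In R100 a single peak of 650 bp lay over the first exon, and R500 had a 250-bp peak inside it, so that 250 bp were shared. The stretch printed above is the part of this peak with 23 CpG in 200 bases. Further peaks lay toward the end of the gene in R100, R500 and R1000. The 50 bp of R4000 lay in the first exon, 245 bp from the TSS. The nearest parental peak lay 36.7 kb from the TSS. Within 50 kb, Tbkbp1, which encodes a binding partner of the kinase TBK1, held 0, 550, 850, 150 and 50 bp in the parental, R100, R500, R1000 and R4000 lines.

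**Figure D5:**
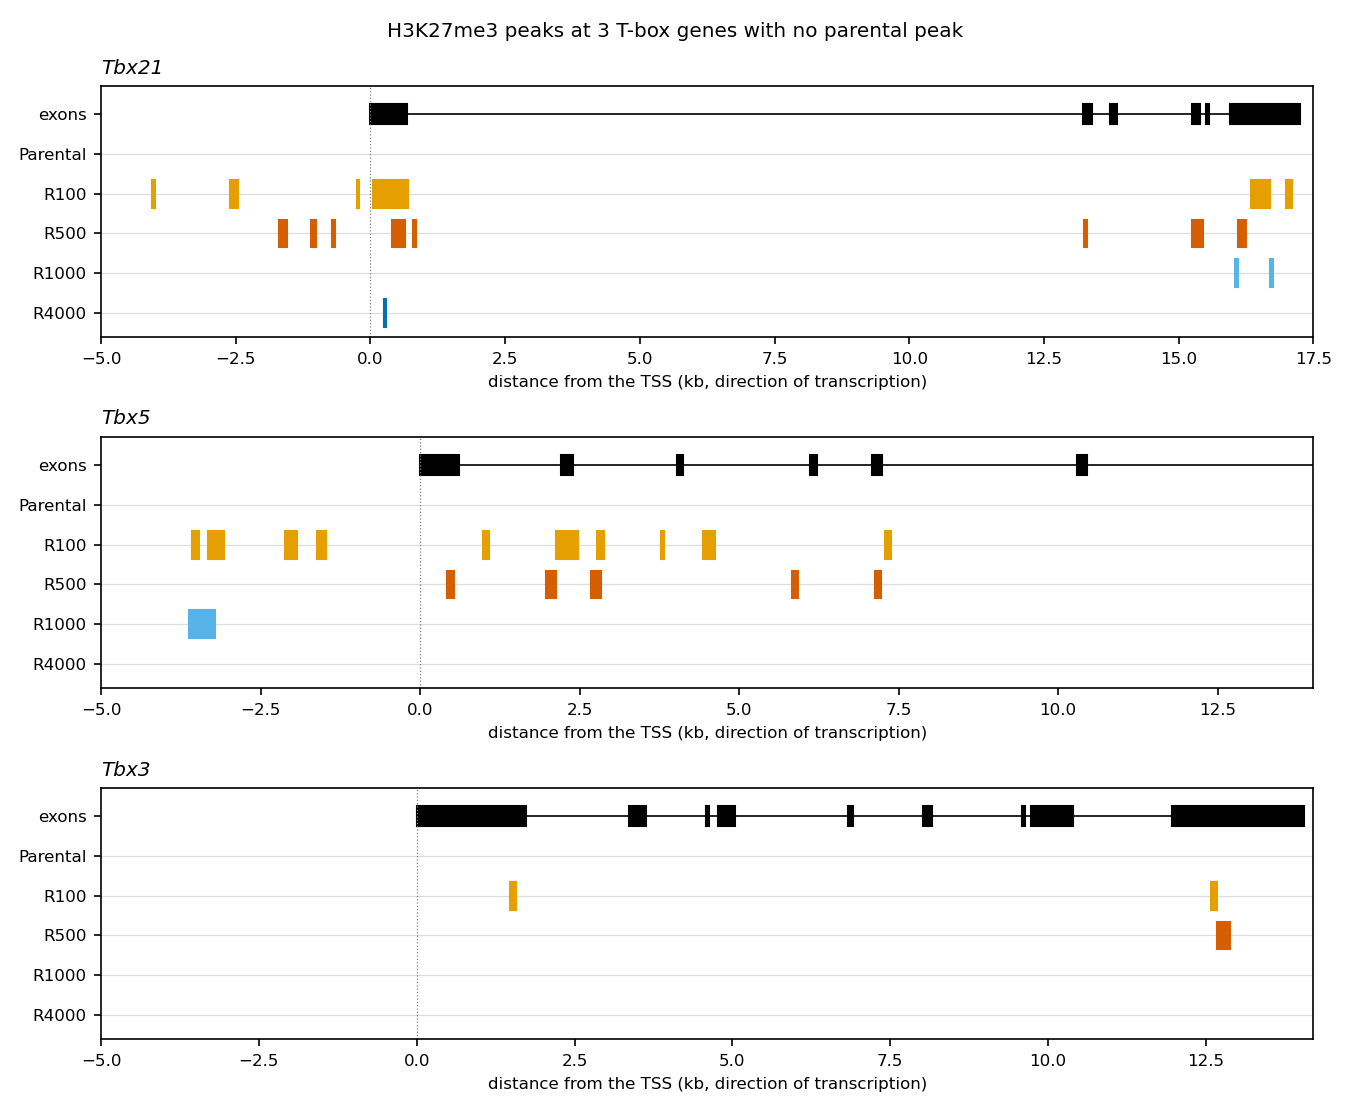
Peaks at Tbx21, Tbx5 and Tbx3, which had no parental peak, in the 5 lines (coloured blocks) below the annotated exons (black blocks), by distance from the TSS (x axis, kb, a separate scale for each gene; Tbx5 is shown to 14 kb, past its last peak). Tbx21 and Tbx5 carry several blocks in R100 and R500, Tbx3 carries 2 in R100 and 1 in R500, and the parental tracks are empty.

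Tbx18 and Tbx20, factors of epicardium and heart, stayed bare or nearly so. Tbx18, at chr9:87597635-87626095 on the - strand, held 0 bp in all 5 lines, and the nearest peak lay between 501 and 761 kb from its window. Tbx20, at chr9:24527648-24578746 on the - strand, held 0 bp in the parental line, R100 and R4000, and 100 bp in R500 and R1000, which was below the minimum of 150 bp. The R500 and R1000 peaks of Tbx20 shared no base, since 200 bp were covered in at least 1 line.

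Base composition at the starts did not order the genes by coverage. CpG content is given as the observed over the expected number of CpG in the 1 kb to either side of the TSS. It was highest in Tbx18 (0.943), which had no peak, followed by Tbx3 (0.816), Tbx2 (0.771), Eomes (0.745), Tbx21 (0.718) and Tbx1 (0.706). It was below 0.6 in Tbx20 (0.568), Tbx15 (0.500), Tbx4 (0.437) and Tbx5 (0.231). The median was 0.712 over the 10 genes and 0.468 over protein-coding genes. Starts with a ratio of at least 0.6 and at least 50% GC were found in 6 of the 10 T-box genes and in 29.7% of protein-coding genes. Of these 6, 3 were covered in parental cells and 5, 5, 3 and 3 in the R100, R500, R1000 and R4000 lines. Among protein-coding genes with such starts, 13.0%, 36.4%, 28.6%, 16.2% and 13.9% were covered in the 5 lines in that order, and among the others 5.42%, 15.4%, 12.0%, 5.77% and 4.16%.

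Covered T-box bases were richer in CpG than the windows they came from. There were 33.1 CpG per kb in parental cells and 46.2, 43.9, 44.3 and 39.1 in the R100, R500, R1000 and R4000 lines, against 16.5 over the windows. The whole lists held 29.6, 42.7, 39.1, 41.1 and 47.1 CpG per kb in the same order. Covered T-box bases were above their list in the parental, R100, R500 and R1000 lines and lower than it in R4000. By annotation, 25.8% to 32.0% of covered T-box bases lay in the 5 kb upstream, which makes up 13.2% of the windows, and 47.3% to 52.2% lay in introns, which make up 76.8%. Coding sequence held 7.71% of covered bases in the parental line and 12.6% to 16.4% in the resistant lines, against 4.69% of the windows.

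The stretch right at the TSS took a small part of the coverage. It is also a small part of the T-box windows, which measure from 11.3 kb (Tbx1) to 118.9 kb (Tbx15). The shares below therefore do not show that peaks avoided the TSS. Within 500 bp on both sides of the TSS lay 6.91% of covered T-box bases in parental cells and 7.76%, 6.70%, 2.96% and 9.22% in the R100, R500, R1000 and R4000 lines, counted over the genes covered in each line. Over all genes covered in each line the shares were 14.5%, 22.7%, 20.0%, 19.7% and 22.9%, with windows of differing length and bases in overlapping windows counted for each gene. Bases annotated as 5′ UTR were covered in R100 (293 bp) and R500 (317 bp) and at 0 bp in the other 3 lines. The T-box half-site AGGTGTGA, searched on both strands, was found in 0 of the 10 T-box promoters (250 bases before to 50 after the TSS) and in 1.11% of protein-coding promoters. These are matches of letters, and no match says only that these letters were not in the 300 bases searched.

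The lines differed in where T-box peaks lay as well as in how many bases they covered. Of the parental T-box bases, 66.4% were also covered in R100 and 69.6% in R500, against 54.4% and 57.4% over the whole lists. R1000 covered 31.2% of the parental T-box bases and R4000 35.3%, against 34.9% and 24.8% over the whole lists. The bases shared by R100 and R500, 15195 bp, were 57.5% of those of R100 and 63.5% of those of R500, and over the whole lists the shares were 48.6% and 54.0%. Of the T-box bases of R4000, 89.4% were also covered in R500, and 70.9% over the whole list. In all 5 lines together 800 bp were covered, 700 of them in Tbx2, 50 in Tbx1 and 50 in Tbx15, out of 37145 bp covered in at least 1 line.

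Wide peaks were most numerous in R100 and R500. Peaks were measured over their full width, also where they ran beyond a window. Those at least 500 bp wide numbered 1 of 32 in parental cells and 15 of 82, 12 of 76, 2 of 37 and 4 of 29 in the R100, R500, R1000 and R4000 lines. These are 3.13%, 18.3%, 15.8%, 5.41% and 13.8% of the peaks that reached into T-box windows, against 5.09%, 8.93%, 9.72%, 6.51% and 5.18% of the peaks of each list. The 1 wide parental peak was in Tbx2. In R4000 wide peaks lay in Tbx1, Tbx2 and Tbx15. With every list reduced to its 6820 widest peaks, the size of the R4000 list, T-box windows held 21895 bp in R100 and 19895 bp in R500, against 5950 bp in the parental line, 6400 bp in R1000 and 6600 bp in R4000. As a whole, the reduced lists of R100 and R500 covered 2.37 and 2.27 times the bases of the reduced parental list. The share of covered bases in T-box windows was then highest in R100, at 0.645%, followed by R4000 (0.615%), R500 (0.612%), R1000 (0.434%) and the parental line (0.415%), so the order of the shares changed with the size of the lists.

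Of the 7 remaining T-box genes of the family, 2 were covered in any line. By line, 1, 1, 2, 1 and 0 were covered in the parental, R100, R500, R1000 and R4000 lines. Among all annotated genes the shares were 5.82%, 15.8%, 12.7%, 6.63% and 5.39%. Tbr1, a factor of cortical neurons, held 550 bp in parental cells, 1650 bp in R100 cells, 1400 bp in R500 cells, 750 bp in R1000 cells and 50 bp in R4000 cells. T (Brachyury), which specifies mesoderm, held 150 bp, all in R500. Tbx10, Tbx19 and Mga reached at most 100 bp in a line, and Tbx6 and Tbx22 held no peak. Of 14 targets and partners of T-box factors, 3 were covered in parental cells, 4 in R100 cells and 3 in each of R500, R1000 and R4000. The shares of all annotated genes are those given above for the 7 remaining T-box genes. The cardiac factor Gata4 held 3400, 7100, 9050, 2050 and 1350 bp in the parental, R100, R500, R1000 and R4000 lines. Nkx2-5, a homeodomain factor of the heart, held 1100, 3800, 4300, 1792 and 750 bp in the same order, and the growth factor gene Fgf8 850, 3050, 3250, 1100 and 450 bp. All 3 were lower in R4000 than in the parental line, as were Tbx4 and Tbr1. Over the whole window, Tbx1 and Tbx15 stood at 1.78 and 1.56 times the parental value in R4000. Tbx2 and Eomes were close to the parental value there, at 1.09 and 1.08 times. In the 5 kb upstream alone, Tbx2, Tbx15 and Eomes were lower in R4000 as well. Ifng, Cxcr3, Il2rb, Prf1 and Gzmb, effector genes downstream of T-bet and Eomes, held no peak in any line.

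Genes with the most similar coverage over the 5 lines were sought for the 3 T-box genes with the most covered bases, by the summed absolute difference in bp among protein-coding genes outside the family. The closest to Tbx2 was Sim2, a neural basic helix-loop-helix factor, with a summed difference of 2960 bp over the 5 lines, followed by Lhx1 (3827 bp) and Wnt10a (4274 bp). The closest to Tbx1 were Lemd1 (1165 bp), Lmx1b (1245 bp) and Igfbp2 (1705 bp), and those closest to Tbx15 were Hoxb8 (1082 bp), Lmx1b (1450 bp) and Adamtsl5 (1450 bp). Sim2 held 2950, 7950, 9740, 3500 and 2600 bp in the parental, R100, R500, R1000 and R4000 lines, and its value in R4000 lay below the 3750 bp of Tbx2.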

How the data were processed

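H3K27me3 ChIP-seq of 5 lines was used, and RRBS of the same lines was not used here. The authors sequenced immunoprecipitated and input DNA on a HiSeq 2000 in 50-bp reads, with Bowtie and mm9 named in the submitters' processing notes, and called peaks against input with Poisson statistics. Per the labels, 1 list was deposited for each line. The deposited values are peak positions in bp, with no count or score, and the methods give a p-value limit for enriched promoters only. The study refers to biological replicates, but the threshold of the lists and whether replicates were pooled in them are not given in the sources used here.

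Distinct peaks were kept, since the R100 and R500 lists held each peak more than once. All 102 checks of positions against mm9 (NCBIM37) chromosome lengths passed. Covered bases of the windows of 37310 genes (GENCODE) were counted with numpy 2.4.6 and pandas 2.3.3 under Python 3.11.15. The counting was tested on 2000 simulated windows (0 differed) and checked with bedtools 2.31.1 in 50 windows (0 differed). The TSS was the outermost annotated 5′ end. Figures were drawn with matplotlib 3.10.9.

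The members and the gene lists were chosen with earlier results of these data known. Named genes were all 10 members, the 7 other T-box genes, annotated genes within 50 kb of a member, 14 targets and partners, 15 cell type markers (a further marker is not reported here), and the 3 protein-coding genes with the smallest summed difference for each of the 3 most covered members. Of the neighbours, those with values that touch a result are named. Alternatives were other windows (5 kb upstream, 2 kb on both sides of the TSS), minimums of 1 and 500 bp, peaks at least 500 bp wide, lists of equal number and the sum without Tbx2. The depth is unknown, so no interval was given.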

Additional observations from a re-analysis of the deposited data

Results flagged for a closer look

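Over the whole window, Tbx4 was the only 1 of the 10 T-box genes whose coverage passed 2-fold in opposite directions among the resistant lines. Tbr1, a T-box gene outside the 10, did so too, with 550 bp in parental cells, 1650 bp in R100 and 50 bp in R4000. Relative to the parental line, coverage of Tbx4 was 3.74 times as high in R100, while it was 0.263 times as high in R1000 and 0.316 times in R4000. With 1 list per line, the difference between R100 and the other 2 lines was not tested. The losses do not hold in other windows, since the parental line covered 0 bp of Tbx4 both in the 5 kb upstream and in the 2 kb to either side of the TSS, where R1000 covered 150 bp.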

How the results depend on the processing

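With 1 list per line, no replicate could be left out, and no spread between replicates or depth bounds these values. No paired analysis was possible because the result comes from no test. A minimum of 1 bp kept each count of covered genes within 1.5 times. The counts were then 5, 8, 9, 8 and 6 in the parental, R100, R500, R1000 and R4000 lines, so R1000 equalled R100. With the 5 kb upstream alone, covered genes fell to 5 in R500 and 3 in R4000, gains came to 4 in R500, 1 in R1000 and 1 in R4000, losses to 2 in R1000 (Tbx15, Eomes) and 2 in R4000 (Tbx2, Tbx15), and the summed ratio turned to 0.949 in R1000 and 0.872 in R4000. With 2 kb on both sides of the TSS, R4000 had 2 gains and 0 losses. With peaks at least 500 bp wide, covered genes numbered 1 in the parental line, 5 in R500, 1 in R1000 and 3 in R4000, gains 0 in R1000 and 2 in R4000, losses 0 in R1000 and 0 in R4000, and the ratios were 22.8 in R100, 18.1 in R500 and 3.07 in R4000, against a parental sum from 1 peak of Tbx2. With lists of equal number, R4000 had 1 gain. With a minimum of 500 bp, 3 genes were covered in R1000. Without Tbx2 the R100 ratio was 6.63. R100 and R500 were above the parental sum in each alternative for which a ratio was computed. The cause of these changes was not tested, beyond the smaller windows and fewer peaks that the alternatives hold by construction.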
